A study of Mus musculus with 8 samples.

Results

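The 5 dopamine receptor genes of the mouse, Drd1, Drd5, Drd2, Drd3 and Drd4, were described in ribosome-bound RNA of the nucleus accumbens and the dorsal striatum of old mice. They were chosen by symbol, and all 5 of the 5 had a row among the 32531 genes counted. The mice of both regions were Drd1-EGFP/Rpl10a (CP73) transgenics, whose tag, a green fluorescent form of ribosomal protein L10a, is driven by the promoter of the D1 receptor gene. They were more than 20 months old, and the labels name no treatment. Tagged polysomes were pulled down with antibodies against the fluorescent protein, in 4 accumbens libraries and 4 dorsal striatum libraries. Whether a library came from a single mouse or from several is not stated in the labels, and every p-value here sets the regions against the library-to-library spread, part of which may be technical. The pull-down marks every cell in which the D1 promoter is active, and unpurified tissue, mice without the transgene and younger mice were not analysed here. The transgene's own transcript was not analysed here either.

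Dopamine receptors are G protein-coupled receptors of 2 classes. The D1 class (Drd1 and Drd5) acts through stimulatory G proteins and raises cyclic AMP, and the D2 class (Drd2, Drd3 and Drd4) acts through inhibitory G proteins and lowers it. In the striatum, Drd1 marks projection neurons of the direct pathway and Drd2 those of the indirect pathway, while Drd3 is known for its expression in the ventral striatum and the islands of Calleja. Drd2 is also made by cholinergic interneurons and by dopamine neurons, and Drd5 by cholinergic interneurons.

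Gene counts per library ran from 10831937 to 12639641 in accumbens and from 7466970 to 10363145 in dorsal striatum. A count of 3, taken as the floor, corresponds to between 0.237 and 0.277 CPM (counts per 1000000 counts on genes) in accumbens. In dorsal striatum it corresponds to between 0.289 and 0.402 CPM. These floors use unscaled library sizes, and the other CPM given here use TMM-scaled ones. Accumbens library 2 and dorsal striatum library 3 had the lowest median rank correlations across genes with the other libraries, 0.927 and 0.935, and the receptor results are also given without them. Of markers of striatal projection neurons, Ppp1r1b, which encodes the dopamine-regulated phosphoprotein DARPP-32, averaged 1192 ± 121 CPM in accumbens and 1676 ± 362 CPM in dorsal striatum (SD, n = 4 each).

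The promoter windows of the 3 receptor genes with more than a few reads are shown because that of Drd1 is the one named for the transgene and the others belong to the genes that differed most. Each is the 250 bases before the gene's RefSeq start in GRCm38.p6, read 5′ to 3′ on the gene's own strand, with every CG dinucleotide in capitals. The Drd3 window lies before the start of a shorter transcript and inside the gene as GENCODE M21 gives it, which begins upstream at 43754026. The window before that upstream start was not used here.
Drd1, chr13:54055659-54055908, minus strand: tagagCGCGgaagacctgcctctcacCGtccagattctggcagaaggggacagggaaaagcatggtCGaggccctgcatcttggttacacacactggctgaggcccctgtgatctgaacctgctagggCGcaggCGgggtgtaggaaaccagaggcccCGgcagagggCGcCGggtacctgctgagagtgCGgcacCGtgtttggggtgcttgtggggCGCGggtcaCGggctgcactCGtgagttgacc
Drd2, chr9:49340153-49340402, plus strand: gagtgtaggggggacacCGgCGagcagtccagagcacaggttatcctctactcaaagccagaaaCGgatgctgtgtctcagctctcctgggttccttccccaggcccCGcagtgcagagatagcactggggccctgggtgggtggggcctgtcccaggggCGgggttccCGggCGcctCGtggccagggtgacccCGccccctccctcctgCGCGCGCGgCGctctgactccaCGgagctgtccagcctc
Drd3, chr16:43761971-43762220, plus strand: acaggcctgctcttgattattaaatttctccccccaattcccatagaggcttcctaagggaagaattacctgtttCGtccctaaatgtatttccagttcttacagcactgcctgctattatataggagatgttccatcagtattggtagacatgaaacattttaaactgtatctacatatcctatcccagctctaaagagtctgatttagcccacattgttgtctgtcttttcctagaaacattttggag
The Drd1 and Drd2 windows each held 15 CG dinucleotides and the Drd3 window held 1. Over 32851 promoter windows of the same length the median was 6, with at least 15 in 27.3% of them and at most 1 in 18.8%. GC content was 64.0% for Drd1, 68.8% for Drd2 and 39.2% for Drd3, against a median of 52.4%. The GC box GGGCGG, searched on both strands, occurred 2 times in the Drd2 window and 0 times in those of Drd1 and Drd3, and 32.7% of all windows held it. None of these 3 windows held TATAAA on either strand, which 12.4% of all windows did. RefSeq also gives Drd1 a second start, and the 250 bases before it held 5 CG dinucleotides and 1 GC box.

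Drd1, the receptor of the direct pathway and the gene whose promoter drives the tag, was by far the most abundant member in every library of both regions. It lies on chromosome 13 (54051183 to 54055705, GENCODE M21, minus strand), and no exon of another gene overlaps it. In the 4 accumbens libraries it stood at 442, 555, 363 and 382 CPM, and in the 4 dorsal striatum libraries at 638, 533, 579 and 669.6 CPM. Accumbens libraries 1, 3 and 4 lay below every dorsal one, and accumbens library 2 lay above dorsal striatum library 2, so the regions overlapped. The log2 fold change of accumbens over dorsal striatum was -0.47 ± 0.14 (SE), which missed the threshold in edgeR's quasi-likelihood test (Benjamini-Hochberg adjusted p = 0.0750). Without accumbens library 2 it was -0.61 and Drd1 was called lower in accumbens (adjusted p = 0.0167), and without both that library and dorsal striatum library 3 it was -0.63 (adjusted p = 0.0245).

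Drd2, the receptor that marks the indirect pathway, went the other way. It lies on chromosome 9 (49340627 to 49408177, plus strand), with no overlapping exon of another gene. Its level was 72.5, 47.2, 48.2 and 56.1 CPM in the accumbens libraries, against 32.4, 32.1, 15.9 and 22.9 CPM in the dorsal striatum libraries. Every accumbens library lay above every dorsal one, and accumbens library 1 was the highest and dorsal striatum library 3 the lowest of all. Drd2 averaged 56.0014 ± 11.7 CPM in accumbens and 25.8 ± 7.97 CPM in dorsal striatum (SD, n = 4 each). The log2 fold change was 1.11 ± 0.25 (SE; edgeR adjusted p = 0.0167), a 2.16-fold higher level in accumbens. The call was lost without accumbens library 1 (log2 fold change 0.97, adjusted p = 0.0759), without dorsal striatum library 3 (0.94, adjusted p = 0.0509) and without dorsal striatum library 4 (1.06, adjusted p = 0.0569). It held without both accumbens library 2 and dorsal striatum library 3 (1.02, edgeR adjusted p = 0.0351). In RNA pooled from many cells, fewer cells of a type and less RNA per cell cannot be told apart.

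Drd3, the receptor of the D2 class best known from the ventral striatum, was the third of the members in both regions. It lies on chromosome 16 (43754026 to 43822932, plus strand), again with no overlapping exon of another gene. Its level was 20.3, 9.72, 23.1 and 19.5 CPM in the accumbens libraries, from 226, 114, 292 and 235 reads. In the dorsal striatum libraries it was 7.45, 10.8, 8.02 and 4.34 CPM, from 63, 102, 58 and 44 reads. Accumbens libraries 1, 3 and 4 lay above every dorsal one, and accumbens library 2 lay below dorsal striatum library 2. The log2 fold change was 1.24 ± 0.38 (SE), as large as that of Drd2 but with a wider error, and it was not called by edgeR (adjusted p = 0.0869). It was 1.45 and called without accumbens library 2 (adjusted p = 0.0317), and 1.47 and not called without both that library and dorsal striatum library 3 (adjusted p = 0.0533). DESeq2 called it with all libraries (1.25, adjusted p = 0.0286).

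Drd4 and Drd5 were at or near the floor. Drd5, the other receptor of the D1 class, had 15, 0, 2 and 0 reads in the accumbens libraries and 2, 0, 0 and 4 in the dorsal striatum libraries. The level of accumbens library 1, 1.35 CPM, was the highest of the 8. On chromosome 5 (38319367 to 38322518, plus strand) the Drd5 exon overlaps the antisense gene Gm26560, and since the strand setting of the counting is not given in the sources used here, Drd5 reads and antisense reads cannot be told apart. Drd4 had 1, 0, 0 and 0 reads in accumbens and 0, 1, 0 and 0 reads in dorsal striatum. Neither gene passed the filter on low counts, and a difference between regions was not detectable at this depth for either.

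Of the 5 members, 3 passed the filter and 1, Drd2, was called, higher in accumbens. Of the 12467 tested genes 3.72% were called, 1.60% higher and 2.12% lower in accumbens. The CPM of the regions did not overlap for 1 member, Drd2, and for 9.69% of tested genes, 4.51% higher and 5.18% lower in accumbens. The median log2 fold change over all tested genes was 0.02.

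**Figure D1:**
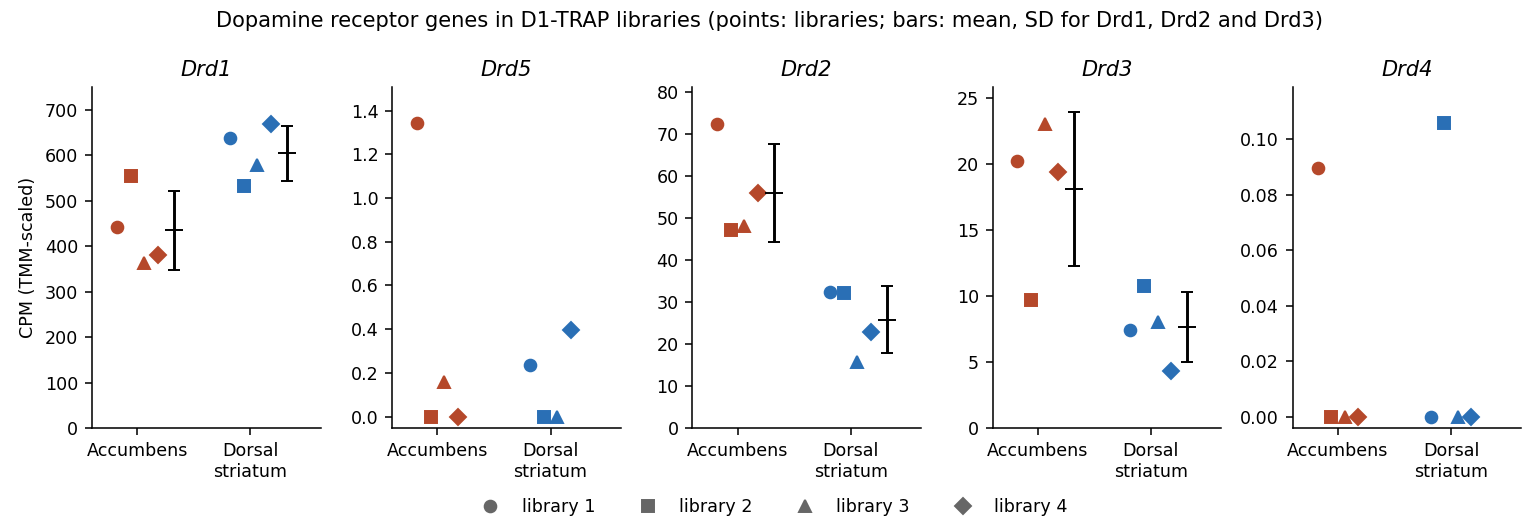
CPM of each receptor gene in the 4 accumbens libraries (left in each panel) and the 4 dorsal striatum libraries (right), each panel with its own linear scale; marker shapes give the library number, and bars give mean and SD for Drd1, Drd2 and Drd3. Every accumbens library lies above every dorsal striatum library for Drd2, and accumbens library 2 is the one that overlaps the dorsal libraries for Drd1 and Drd3.

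Levels of different genes were compared per kilobase of exon, scaled to the same total in each library (TPM). Drd1 stood at 665 ± 126 TPM in accumbens and 869.97 ± 66.97 TPM in dorsal striatum (SD, n = 4 each), rank 168 and rank 126 among 23908 genes with a length. Drd2 stood at 122 ± 26.5 TPM in accumbens and 53.1 ± 16.7 TPM in dorsal striatum. Drd3 stood at 58.8 ± 18.9 TPM in accumbens and 23.5 ± 8.69 TPM in dorsal striatum. The order Drd1, Drd2, Drd3 held in 4 of 4 accumbens libraries and in 4 of 4 dorsal striatum libraries. Drd1 was between 4.28 and 8.26 times Drd2 per length in the accumbens libraries and between 11.6 and 25.5 times in the dorsal ones. Drd2 was between 1.40 and 3.26 times Drd3 in the accumbens libraries and between 1.33 and 3.54 times in the dorsal ones. Drd5 and Drd4, neighbours at the bottom of this order, averaged 0.660 and 0.0368 TPM in accumbens and 0.256 and 0.0424 TPM in dorsal striatum, and did not differ beyond their spread.

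Since a share within a library needs no scaling between libraries, the mix of receptor reads was also compared. Of all reads on the 5 genes, Drd1 took 85.04% ± 3.81 in accumbens and 94.7% ± 1.701 in dorsal striatum (SD, n = 4 each). Drd2 took 11.1% ± 2.499 in accumbens and 4.07% ± 1.35 in dorsal striatum, and Drd3 3.73% ± 1.57 in accumbens and 1.23% ± 0.522 in dorsal striatum. The Drd2 share of Drd1 plus Drd2 reads was 14.1%, 7.83%, 11.7% and 12.8% in the accumbens libraries and 4.84%, 5.69%, 2.68% and 3.30% in the dorsal ones. The regions did not overlap, and the nearest libraries were accumbens library 2 (95% Wilson interval 7.23% to 8.48%) and dorsal striatum library 2 (5.10% to 6.34%). These intervals cover counting error only. The mean share was 11.6% ± 2.70 in accumbens and 4.13% ± 1.38 in dorsal striatum. The difference was 7.49 percentage points (exact two-sided permutation test, unadjusted p = 0.0286, the lowest possible p with 4 libraries a region).

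Count ratios to markers of each pathway were tested in the same way, 6 in all. The log2 ratio of Drd2 over Drd1 was -2.96 ± 0.42 in accumbens and -4.60 ± 0.52 in dorsal striatum (SD, n = 4 each). The difference was 1.64 (two-sided exact permutation p = 0.0286, 0.0857 adjusted over the 6). This ratio comes from the same reads as the Drd2 share above, so the ratio and the share are not separate results. Drd2 was then set against Adora2a, an adenosine receptor gene, and Penk, the enkephalin precursor, which both mark indirect-pathway neurons. Drd2 over Adora2a was 1.43 ± 0.29 in accumbens and 1.67 ± 0.18 in dorsal striatum, a difference of -0.24 (exact permutation p = 0.257, adjusted 0.386). Drd2 over Penk was -3.44 ± 0.11 in accumbens and -3.30 ± 0.25 in dorsal striatum, a difference of -0.14 (exact permutation p = 0.371, adjusted 0.446). Differences between single accumbens and dorsal libraries ran from -0.67 to 0.40 for the ratio to Adora2a and from -0.46 to 0.26 for the ratio to Penk. These ratios overlapped between regions, which does not show that they were equal.

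Drd1 was set against Ppp1r1b, which projection neurons of both pathways express, and against genes of its own pathway. Its log2 ratio to Ppp1r1b was -1.47 ± 0.35 in accumbens and -1.45 ± 0.32 in dorsal striatum (SD, n = 4 each), a difference of -0.01 (exact permutation p = 0.971, adjusted 0.971), and single library differences ran from -0.81 to 0.78. Against Tac1, the substance P precursor, the ratio was 0.50 ± 0.36 in accumbens and 1.03 ± 0.16 in dorsal striatum, a difference of -0.53 (exact permutation p = 0.0857, adjusted 0.171). Against Pdyn, the dynorphin precursor, it was 0.01 ± 0.25 in accumbens and 1.53 ± 0.37 in dorsal striatum, and the regions did not overlap (difference -1.52, exact permutation p = 0.0286, adjusted 0.0857). Pdyn itself stood at 427 ± 37.2 CPM in accumbens and 211 ± 37.9 CPM in dorsal striatum, while Tac1 stood at 306 ± 55.6 CPM in accumbens and 295 ± 30.5 CPM in dorsal striatum.

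**Figure D2:**
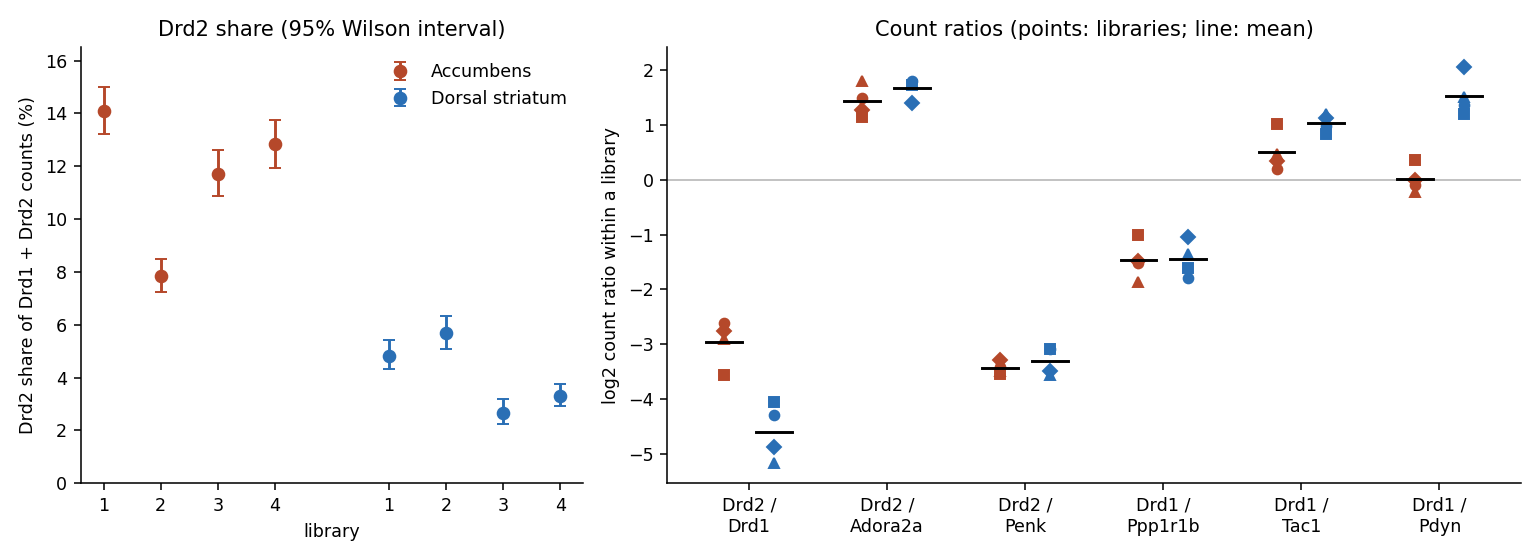
Left, the Drd2 share of Drd1 plus Drd2 reads in percent for each accumbens and dorsal striatum library, with 95% Wilson intervals; right, the 6 log2 count ratios within a library, with accumbens left of dorsal striatum in each pair, marker shapes for library numbers and lines for means. The Drd2 share is 7.83% to 14.1% in accumbens and 2.68% to 5.69% in dorsal striatum, while the ratios of Drd2 to Adora2a and to Penk overlap between regions.

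The genes whose levels followed each receptor most closely were found by the root mean square difference in log2 CPM over the 8 libraries, each gene centred on its own mean, among 8135 other genes averaging at least 10 CPM. For Drd1 they were Mon1b, a regulator of vesicle traffic (0.102), Mtpn, which encodes myotrophin (0.108), Nucks1, a chromatin-associated protein (0.1102), Atp2b2, a calcium pump of the plasma membrane (0.1113), and Zmat3, an RNA-binding zinc finger protein (0.1115). The median over all genes compared with Drd1 was 0.436. For Drd2 they were Bok, a relative of BCL2 (0.161), Penk (0.181), Ak5, an adenylate kinase (0.215), Car2, a carbonic anhydrase (0.225), and Nrsn1, which encodes neurensin (0.226), against a median of 0.748. These genes were selected on their levels in the same libraries, region difference included, so that the direction in which they differ between regions follows from the selection. Of the genes like Drd1, Atp2b2 (edgeR adjusted p = 0.00581) and Zmat3 (0.00840) were called lower in accumbens. Of those like Drd2, Penk (adjusted p = 7.87e-05), Ak5 (2.86e-04) and Nrsn1 (0.00840) were called higher in accumbens. Zmat3 (0.131) and Nrsn1 (0.111) were not called with glial markers as a covariate.

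**Figure D3:**
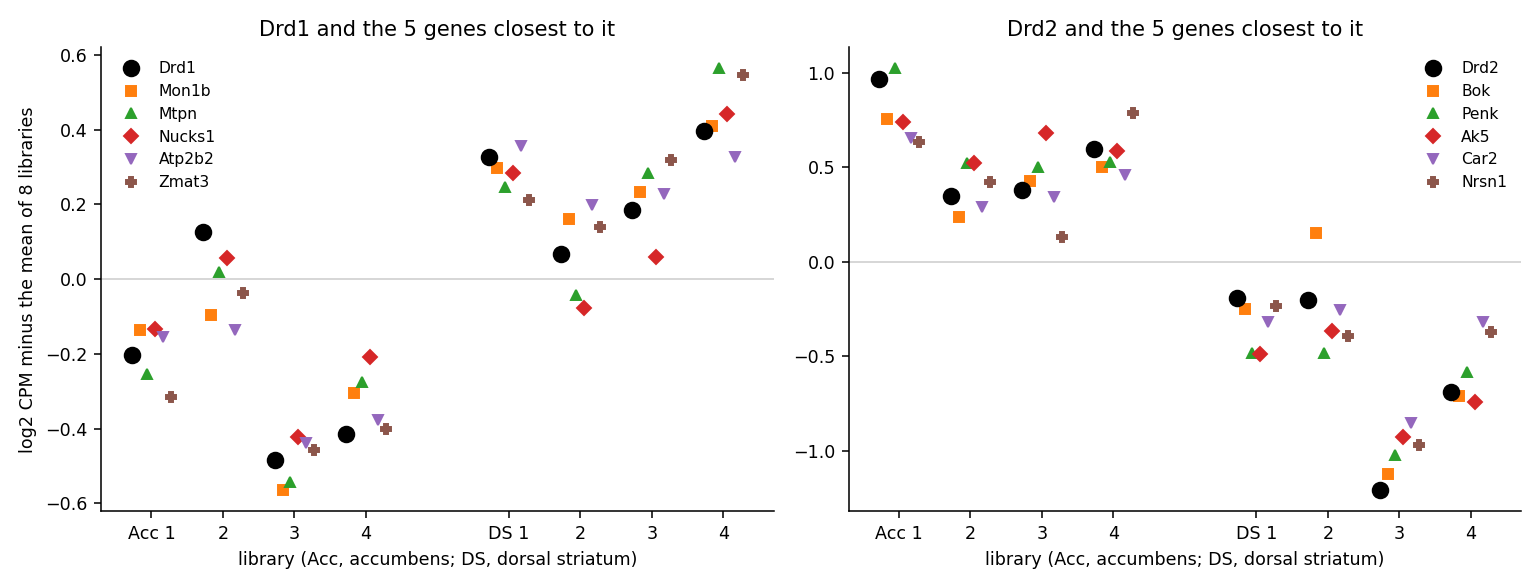
Log2 CPM minus the gene's mean over the 8 libraries for Drd1 (left) and Drd2 (right) in black, each with the 5 genes of smallest root mean square difference, for accumbens libraries 1 to 4 and then dorsal striatum libraries 1 to 4. Drd2 and Penk lie above 0 in every accumbens library and below 0 in every dorsal striatum library, and Drd1 is high in accumbens library 2 compared with the other accumbens libraries.

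The signs of other cells were set beside these values. Of 5 tested markers of the indirect pathway besides Drd2, all 5 lay above 0 on the log2 scale (median log2 fold change 1.29), and 2 were called higher in accumbens and 0 lower. They were Penk, at 606 ± 115 CPM in accumbens and 248 ± 40.9 CPM in dorsal striatum (SD, n = 4 each), and Adora2a, at 20.96 ± 5.10 CPM in accumbens and 8.04 ± 2.27 CPM in dorsal striatum. Adora2a was no longer called when accumbens library 1 or 4, or any 1 of the dorsal libraries, was left out (edgeR adjusted p up to 0.101), nor with the glial covariate (0.326). An exon of Penk overlaps an antisense gene, A830012C17Rik. The summed level of all 6 indirect-pathway markers was 580 to 839 CPM in accumbens and 207 to 302 CPM in dorsal striatum. In the other direction, 6 of 10 markers shared by projection neurons were called lower in accumbens and 0 higher (median -0.73). Among them was the phosphodiesterase gene Pde10a (1656 ± 242 CPM in accumbens, 2794 ± 171 CPM in dorsal striatum). Of all tested genes, whatever their level, 1.60% were called higher in accumbens and 2.12% lower.

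Cholinergic interneurons can make Drd2 and Drd5. The summed level of their 6 markers was 5.92 to 25.7 CPM in accumbens and 1.18 to 10.2 CPM in dorsal striatum. Slc18a3, the vesicular acetylcholine transporter gene, was at 0 in every library. Chat, the gene of the acetylcholine-synthesizing enzyme, averaged 1.02 ± 1.81 CPM in accumbens and 1.24 ± 0.830 CPM in dorsal striatum (SD, n = 4 each). The glutamate transporter gene Slc17a8 averaged 8.29 ± 4.94 CPM in accumbens and 2.98 ± 3.44 CPM in dorsal striatum. The transcription factor gene Lhx8 averaged 2.59 ± 5.07 CPM in accumbens, with libraries from 0 to 10.2 CPM, and 0.329 ± 0.491 CPM in dorsal striatum. The choline transporter gene Slc5a7 averaged 1.499 ± 2.37 CPM in accumbens and 0.379 ± 0.670 CPM in dorsal striatum. Of these genes Slc17a8 alone passed the filter on low counts, and it was not called (edgeR adjusted p = 0.343). Accumbens library 1, with the most Drd5 reads, had the lowest of the accumbens sums (5.92 CPM). Dorsal striatum library 4, with the most Drd5 reads of its region, had the highest of the dorsal sums (10.2 CPM). The part of cholinergic interneurons in the Drd2 and Drd5 reads was not tested. Of dopamine neuron genes, the dopamine transporter gene Slc6a3 averaged 0.246 ± 0.281 CPM in accumbens and 0.109 ± 0.150 CPM in dorsal striatum. Astrocyte markers summed to 244 to 679 CPM in accumbens and 190 to 359 CPM in dorsal striatum, oligodendrocyte markers to 127 to 323 CPM in accumbens and 122 to 194 CPM in dorsal striatum, and microglia markers to 4.80 to 15.3 CPM in accumbens and 0.985 to 4.24 CPM in dorsal striatum. Of the tested genes of these 3 lists 1 was called, the astrocyte glutamate transporter gene Slc1a2, which was higher in accumbens (log2 fold change 0.91, edgeR adjusted p = 0.0452), a call lost without 6 of the 8 single libraries (adjusted p up to 0.166). Endothelial and mural markers summed to 32.8 to 225.5 CPM in accumbens and 17.99 to 119 CPM in dorsal striatum, and the 6 that were tested all lay above 0 (median log2 fold change 0.99), with 0 called by edgeR and 1 at an unadjusted p under 0.05. When the mean level of 13 tested glial markers entered the fit as a covariate, Drd2 had a log2 fold change of 0.88, Drd3 of 1.01 and Drd1 of -0.42. None of the 3 was then called (edgeR adjusted p = 0.255 for Drd2, 0.460 for Drd3 and 0.431 for Drd1). Accumbens library 1, the highest in Drd2, was also the highest in astrocyte and in indirect-pathway markers. Cortical glutamatergic markers summed to 20.6 to 96.6 CPM in accumbens and 3.94 to 99.6 CPM in dorsal striatum. GABA interneuron markers summed to 70.1 to 161 CPM in accumbens and 35.6 to 136 CPM in dorsal striatum. Of the tested genes of both lists edgeR called 0. The part of indirect-pathway neurons, cortical neurons, interneurons, glia and vascular cells in the receptor levels was not tested.

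The G proteins, cyclases and inward rectifier channels through which the receptors signal were divided. Of 20 tested, 3 were called higher in accumbens and 3 lower, against 1.60% and 2.12% of all tested genes. Their median log2 fold change was 0.08. Gnas, the stimulatory G protein whose exons overlap antisense genes, stood at 444 ± 53.3 CPM in accumbens and 185 ± 50.6 CPM in dorsal striatum (SD, n = 4 each; log2 fold change 1.26 ± 0.17 SE, edgeR adjusted p = 2.86e-04). The beta subunit gene Gnb4 was called higher (0.79, adjusted p = 0.0190). Gnao1, an inhibitory G protein of the Go class, stood at 1294 ± 58.0029 CPM in accumbens and 1932 ± 78.5 CPM in dorsal striatum (-0.58 ± 0.097 SE, adjusted p = 0.00157). Gnb5 (-0.82) and the adenylyl cyclase gene Adcy1 (-0.74) were also lower. Gnal, which encodes the olfactory G protein that couples Drd1 to cyclase in the striatum, was not called at 2521 ± 189.6 CPM in accumbens and 3106 ± 210.3 CPM in dorsal striatum (-0.30 ± 0.098 SE, adjusted p = 0.117). The sixth called gene, Gnai1, which encodes an inhibitory G protein of the kind used by the D2 class, stood at 575 ± 33.9 CPM in accumbens and 399.9 ± 18.9 CPM in dorsal striatum (0.52 ± 0.11 SE, adjusted p = 0.00982). The calls of Gnb4 and Adcy1 were lost without 3 and 6 of the 8 single libraries (adjusted p up to 0.0705 for Gnb4 and 0.154 for Adcy1). With the glial covariate 1 gene of the list, Gnas, was called higher and 2 were called lower. Gnb4 (0.267), Gnb5 (0.164) and Gnai1 lost their calls.

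Of 24 kinases, phosphatases and phosphodiesterases downstream of the receptors, 4 were called lower in accumbens and 0 higher (median -0.12). They were Pde10a (-0.75), the cyclic AMP-regulated phosphoprotein gene Arpp19 (-0.92), the kinase gene Rps6ka5 (-0.88) and Gsk3b (-0.71), a kinase that acts downstream of Drd2. Of 24 genes for receptor desensitization and binding partners, 3 were called lower and 1 higher (median 0.10). For both lists, the share over all tested genes was 2.12% lower and 1.60% higher. The brake on G protein signalling Rgs4 stood at 356 ± 45.7 CPM in accumbens and 1120.2 ± 137 CPM in dorsal striatum (-1.65 ± 0.13 SE, edgeR adjusted p = 1.23e-06). Rgs9 (-0.77) and Rgs7bp (-1.12), the gene of a protein that anchors RGS complexes, were lower too. The gene of the receptor kinase GRK2, listed under its older symbol Adrbk1, was called higher (0.91, adjusted p = 0.0318), but lost its call with limma-voom (0.0678) and without 6 of the 8 single libraries (up to 0.108). With the glial covariate Adrbk1 (0.280), Rps6ka5 (0.222) and Gsk3b (0.0617) were not called, and Rps6ka5 was also lost without 2 of the 8 single libraries (up to 0.0626). With DESeq2, 3 genes of the downstream list were called higher and 5 lower, and 2 and 3 of the desensitization list.

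Of 8 markers of the direct pathway besides Drd1, 1 was called higher in accumbens and 2 lower (median -0.36). Over all tested genes, 1.60% were called higher and 2.12% lower. Pdyn was the marker called higher (log2 fold change 1.02). The lower ones were the transcription factor genes Ebf1, at 42.2 ± 10.4 CPM in accumbens and 100.02 ± 5.76 CPM in dorsal striatum (SD, n = 4 each; -1.25), and Eya1 (-0.55), which was not called with the glial covariate (edgeR adjusted p = 0.103).

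**Figure D4:**
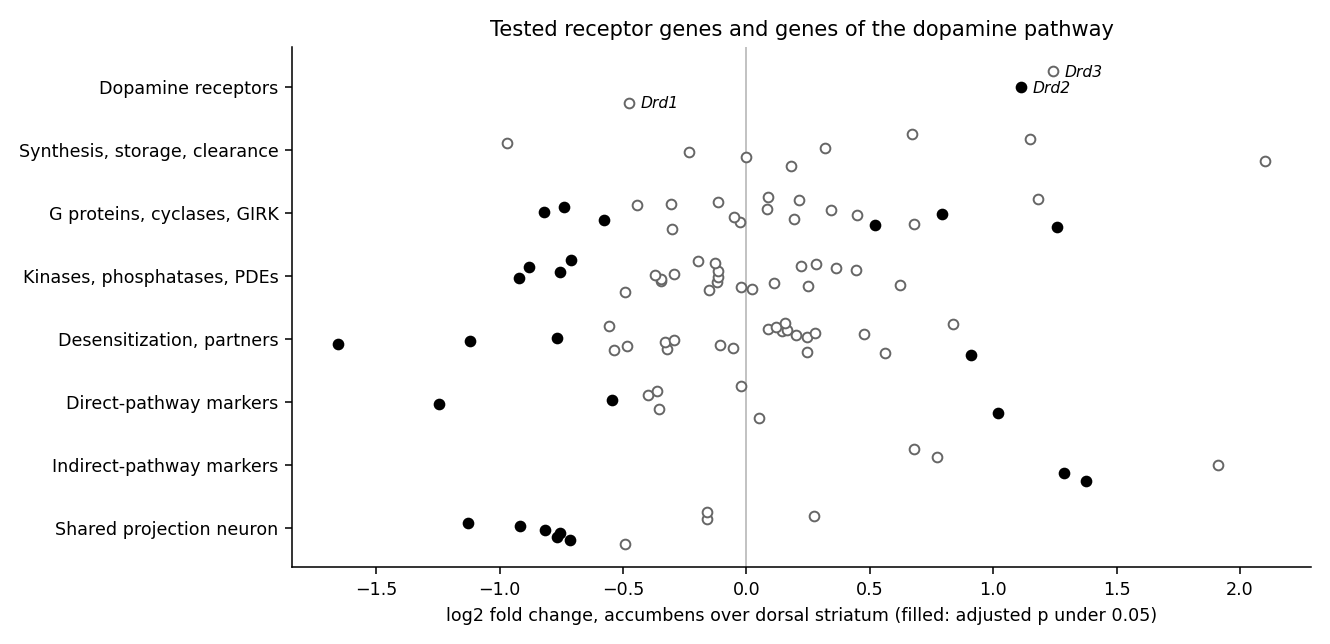
Log2 fold change of accumbens over dorsal striatum for the 3 tested receptor genes and for the tested genes of 7 lists, 1 point per gene, filled where edgeR's adjusted p was under 0.05. In the top row, Drd2 and Drd3 lie at 1.11 and 1.24 and Drd1 at -0.47. The indirect-pathway markers run from 0.68 to 1.91 (median 1.29) and the direct-pathway markers from -1.25 to 1.02 (median -0.36). The shared projection neuron markers run from -1.13 to 0.28 (median -0.73).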

How the data were processed

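Each library has a deposited list of whole-number read counts, not normalized, for 32531 genes. The submitters' processing notes name STAR 2.0.0e and HTSeq with the mm10 genome. The annotation, strand setting and filters are not given in the sources used here. In GENCODE M21, exons of Penk, Gnas, Ppp1r1b, Gnao1, Gnb5, Gnal, Ak5, Nucks1, Slc1a2 and Slc18a2 overlap antisense genes. Exons of Mon1b and Rps6ka5 overlap genes on the same strand. How far these overlaps changed the counts was not tested. Unassigned reads were left out. They made up 35.5% to 40.6% of an accumbens library and 27.1% to 33.8% of a dorsal striatum library. The regions did not overlap in this share, and its part in the region differences was not tested. Every pair of libraries differed beyond sampling noise. Accumbens was tested against dorsal striatum, grouped by title, with the quasi-likelihood test of edgeR 4.0.16 in R 4.3.3 (TMM, filterByExpr with a minimum count of 10, Benjamini-Hochberg adjustment over 12467 genes, called under 0.05), after testing on simulated data. A positive log2 fold change means higher in accumbens. Its SE was derived from the test, as the absolute log2 fold change divided by the square root of the F statistic. CPM other than the floors use TMM-scaled library sizes. Per-length values use exon unions of GENCODE M21 (GRCm38). Its genes held 90.8% to 92.5% of counts in accumbens and 93.0% to 96.6% in dorsal striatum. Ratios had a pseudocount of 0.5. Promoter windows come from RefSeq.

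The members, lists and tests were chosen with earlier results of these data known. Named genes are the members, up to 4 called and 2 abundant genes of each list, ratio partners and the closest genes, not all of which are described. Gnai1, Chat, Slc6a3, Slc18a3, Slc5a7, Slc18a2, Th, Ddc, Ncs1, Arrb1 and Adcy5 fall outside that rule and were picked with their values in view. Alternatives were RLE and upper-quartile normalization, other filters, DESeq2 1.42.0, limma-voom 3.58.1 with quality weights, a replicate block, a glial covariate and each library left out. Leaving out accumbens library 2 with dorsal striatum library 3 was added after seeing the data.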

Additional observations from a re-analysis of the deposited data

Results flagged for a closer look

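Drd5 stood at 1.35 CPM in accumbens library 1, from 15 reads, far above the other accumbens libraries. Chance sets a library apart in this way in about 1 in 20 groups of continuous values, and 24 groups were screened. The other instances each rest on 1 read, where a library with a read stands apart by construction: Drd4 stood at 0.0897 CPM in accumbens library 1 and at 0.106 CPM in dorsal striatum library 2, with 0 reads in the other libraries of each region.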

How the results depend on the processing

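Drd1, Drd2 and Drd3 kept the sign of their log2 fold changes under every alternative run, and the causes of the changed calls were not tested. Drd1 passed the threshold, lower in accumbens, with no low-count filter (-0.47), with DESeq2 (-0.47), with limma-voom (-0.50) and without accumbens 2 and dorsal striatum 3 (-0.63), and its log2 fold change ran from -0.61 to -0.39 with single libraries left out. Drd2 lost its call with the glial marker covariate (0.88) and ran from 0.94 to 1.24. Drd3 was called with DESeq2 (1.25), ran from 1.04 to 1.46, and was 1.47 without both of those libraries. Genes called numbered 767 with DESeq2 and 214 with the covariate, against 464. Those higher in accumbens numbered 350 without a filter, 376 with DESeq2 and 85 with the covariate, against 200, and those lower 129 with the covariate, against 264. With single libraries left out they ran from 324 to 411 in all, 139 to 191 higher and 184 to 236 lower.

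With single libraries left out, the difference in the Drd2 share ran from 6.67 to 8.75 percentage points (exact permutation p = 0.0571 without any 1 of the dorsal libraries), that in Drd2 over Drd1 from 1.44 to 1.84, in Drd1 over Pdyn from -1.64 to -1.35 and in Drd1 over Tac1 from -0.70 to -0.43. Without accumbens 2 and dorsal striatum 3 the differences were 8.27 points, 1.64 and -1.65, at an exact permutation p of 0.100, the smallest that 3 against 3 allow. Whether same-numbered libraries came from the same mice is not stated in the labels. Deviations of same-numbered libraries correlated at -0.081 to 0.014 across genes, and no accumbens library was closest to its own number. Such correlations cannot settle the pairing, since noise of each library can hide a shared mouse. With the replicate block edgeR called 432 genes, and the exact sign-flip p was 0.125, the smallest that 4 pairs allow, for the share (7.49), Drd2 over Drd1 (1.64) and Drd1 over Pdyn (-1.52). Drd1 per length was 507 TPM in accumbens and 664 TPM in dorsal striatum on longest transcripts, and Drd2 91.8 TPM in accumbens. Drd4 and Drd5 had too few reads for a comparison between regions.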

Other observations

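Of 8 tested genes for dopamine synthesis, storage and clearance, edgeR called 0, 1 had an unadjusted p under 0.05, and DESeq2 and limma-voom called 0 each. Their median log2 fold change was 0.25. The largest was that of Ddc, at 2.10 ± 0.90 (SE, edgeR adjusted p = 0.265). Ddc averaged 6.06 ± 4.51 CPM in accumbens and 1.41 ± 1.59 CPM in dorsal striatum (SD). The vesicular transporter gene Slc18a2 averaged 5.98 ± 2.42 CPM in accumbens and 5.98 ± 2.46 CPM in dorsal striatum (SD, n = 4 each), and Th, the gene of the rate-limiting enzyme of dopamine synthesis, 1.72 ± 1.68 CPM in accumbens and 1.51 ± 1.31 CPM in dorsal striatum.

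Values of 3 further genes of the G protein and desensitization lists, none of them called, are given here. Ncs1, a calcium sensor that binds Drd2, stood at 186.5 ± 10.03 CPM in accumbens and 134 ± 14.5 CPM in dorsal striatum (log2 fold change 0.48 ± 0.14 SE, edgeR adjusted p = 0.0648). The arrestin gene Arrb1 stood at 205 ± 29.96 CPM in accumbens and 213 ± 25.7 CPM in dorsal striatum (adjusted p = 0.921). Adcy5, the main adenylyl cyclase of the striatum, stood at 402 ± 37.6 CPM in accumbens and 497 ± 82.5 CPM in dorsal striatum (adjusted p = 0.295). Drd3 reads per 100 Drd2 reads were 28.0, 20.6, 47.9 and 34.7 in the accumbens libraries and 23.0, 33.7, 50.4 and 19.0 in the dorsal striatum libraries, and the regions overlapped.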
